A study of Mus musculus with 18 samples.

Results

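Estrogen receptor positive (ER+) luminal cells sorted from the mammary glands of mice in mid pregnancy were compared with the same cell population sorted from adult glands. There were 2 libraries from pregnancy and 2 from adult mice. A gene entered the comparison when it had a scaled count of 10 or more in at least 2 of these 4 libraries. That rule kept 18053 of the 46182 gene IDs used from the table. The series holds 18 RNA-seq libraries in all: ER+ luminal, ER- luminal and basal cells, each from puberty, adulthood and mid pregnancy, with 2 libraries in each of the 9 groups. All 18 came from cells isolated by flow sorting from the mammary gland, and every animal carried the genotype ERrtTA/TetOCre/rosaYFP, so no wild-type gland stands beside them. As the name reads, estrogen receptor regulatory sequences drive the doxycycline-dependent activator rtTA, which drives Cre recombinase, and Cre switches on a yellow fluorescent reporter at the Rosa locus; the labels give no doxycycline treatment. The surface markers or reporter used in the sort, the days of gestation, the age of the adults and the number of animals behind a library were not given in the sources used here. Nothing says that the libraries of a group came from separate animals, so every p-value below measures only the spread between these libraries, which may be technical.

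The mammary epithelium is a bilayer of inner luminal and outer basal (myoepithelial) cells. ER+ luminal cells, also called hormone-sensing cells, carry the receptors for estrogen, progesterone and prolactin, and pass the hormonal signal to their neighbours through secreted factors such as amphiregulin, RANKL and WNT4. ER- luminal cells hold the progenitors that build the milk-producing alveoli in pregnancy, under prolactin, the kinase JAK2, the transcription factor STAT5 and the transcription factor ELF5. Milk is made of caseins, whey proteins, lipid and lactose, and its genes are switched on stepwise between mid pregnancy and birth.

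The values analysed are gene counts that the authors had scaled to a common library total of 19806941 to 19872592 and rounded to whole numbers, called scaled counts below. The steps between low values gave the reads behind each library: 6360264 and 6143319 for pregnancy ER+ replicates 1 and 2, and 2558368 and 2405290 for adult ER+ replicates 1 and 2. A single read was therefore worth 3.12 and 3.23 scaled counts in the pregnancy libraries, and 7.76 and 8.25 in the adult libraries. Genes above 0 numbered 23234 and 22380 in pregnancy, against 18938 and 19071 in adult cells. Mitochondrial genes took 2.74% and 3.17% of the pregnancy libraries, against 7.07% and 5.69% of the adult libraries.

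The ER+ label was set against defining genes first. Esr1, the estrogen receptor alpha gene, had 5666 and 2096 scaled counts in pregnancy ER+ cells and 683 and 751 in pregnancy ER- cells. It had 11208 and 12091 in adult ER+ cells and 2373 and 3246 in adult ER- cells. The 11 ER+ luminal markers summed to 95586 and 39678 in pregnancy ER+ cells, against 191007 and 216107 in adult ER+ cells. The 7 ER- luminal markers summed to 18472 and 42639 in pregnancy ER+ cells, against 6022 and 7762 in adult ER+ cells. Pregnancy ER+ replicate 2 stood apart: its ER- marker sum was close to the 49768 and 53284 of the pregnancy ER- libraries, while its ER+ marker sum still exceeded their 7440 and 8341. How many cells of another type each library held was not tested, and in bulk samples fewer cells of a type and less RNA per cell cannot be told apart. Results are therefore given per library, and the main counts also without pregnancy ER+ replicate 2.

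The deposited table appears to be joined from 3 sets of libraries: puberty with adult basal cells, adult luminal cells, and pregnancy. Of 75 gene IDs with conflicting rows, 63 varied between rows in the pregnancy set and 67 in the puberty with adult basal set. Within each of these sets their values varied together. In the adult luminal set 0 of them varied, so these rows mark that set only by the lack of conflict. Stage and set cannot be told apart in the comparison of pregnancy with adult ER+ cells. A further 24 gene symbols stood under 49 tested IDs with the same values in every library outside the adult luminal set, and 21 of these differed between IDs within it, Sgsm3, Tead2 and Ltbp4 among them; their changes are uncertain and are not described. Raver1 was 0 in all 14 other libraries and had 1575 and 1526 scaled counts in adult ER+ cells; it and 5 more such genes are likewise left aside.

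Of the 18053 genes, 2644 (14.6%) were higher and 1092 (6.05%) lower in pregnancy ER+ than in adult ER+ cells at a Benjamini-Hochberg adjusted p under 0.05, from limma on log2(scaled count + 1), 20.7% in all. Over the 22269 genes tested in the series 17.8% were called, 12.8% higher and 5.04% lower, and these shares are the background for the gene groups below. The 2 groups of libraries did not overlap for 6665 members that were higher in pregnancy (36.9%) and for 4081 that were lower (22.6%). For 1333 members that entered through the pregnancy libraries alone, and 194 through the adult libraries alone, the entry rule itself fixed this. The 2 shares therefore do not compare the directions evenly. The median size of the change was 1.84 on the log2 scale among genes called higher and 1.22 among genes called lower, with any group at 0 set to the limit of 3 reads over its 2 libraries. At least 4-fold changes numbered 1220 among genes called higher and 282 among those called lower. Among the genes called higher, 476 had no read in either adult library and 417 had 1 to 3 reads there. Restricting the count to genes with a mean over the 4 libraries above the median left 1585 higher (14.2%) and 911 lower (8.19%) of 11130, 22.4% in all. Without pregnancy ER+ replicate 2, 1418 genes were called higher and 382 lower of the 22269, and without adult ER+ replicate 2 these counts were 2056 and 528. Fitted on the 4 libraries alone, limma called 0 genes, with 5769 at an unadjusted p under 0.05, so the calls rest on the spread shared over all 9 groups.

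**Figure D1:**
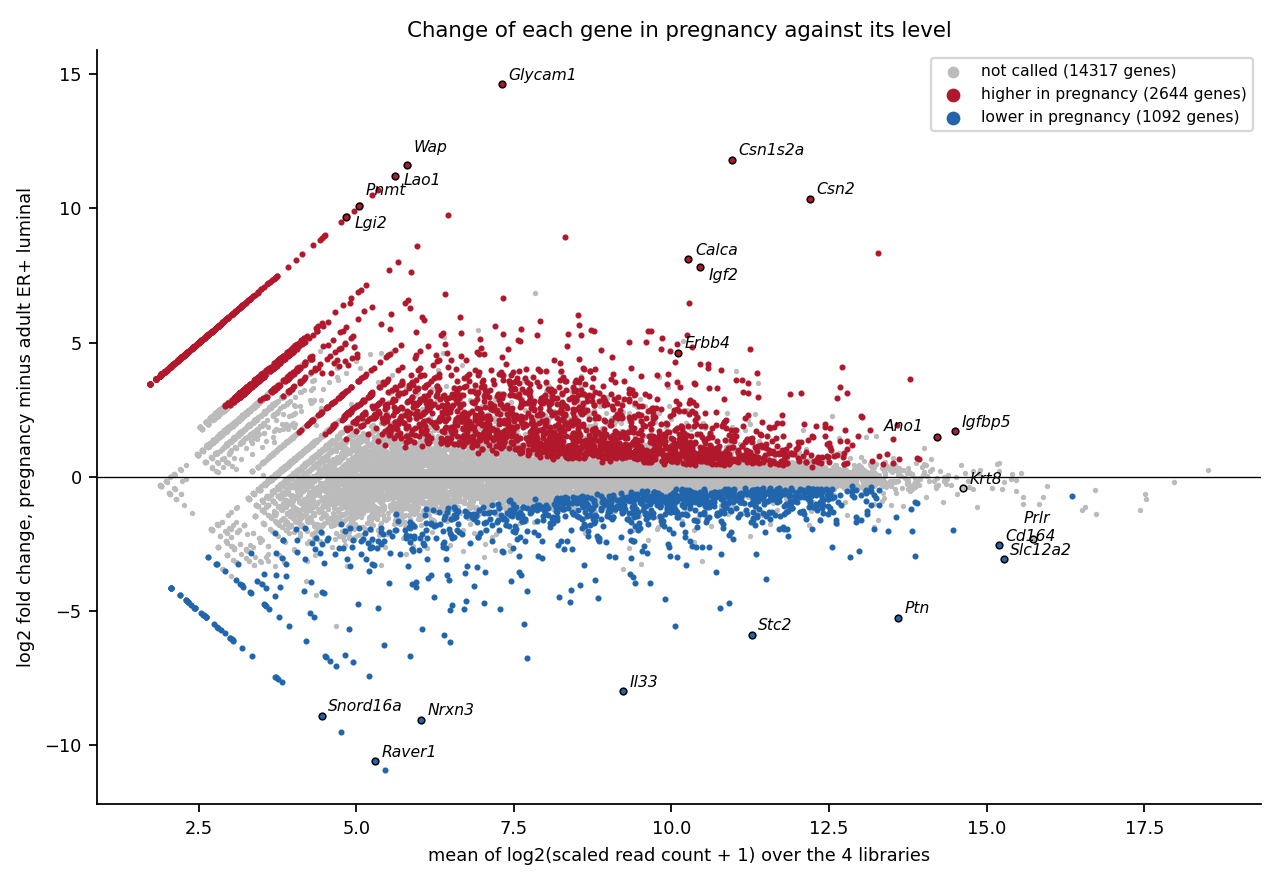
Log2 fold change of pregnancy over adult ER+ luminal cells (y axis) against the mean of log2(scaled count + 1) over the 4 libraries (x axis), with 1 point for each of 18053 genes. The 2644 genes called higher (red) and the 1092 called lower (blue) widen toward low levels; Csn2 and Csn1s2a lie at the top right and Stc2 and Ptn at the bottom right, and the diagonal lines on the left are genes at 0 or few reads in 1 of the groups.

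Caseins, the main proteins of milk, rose in all 5 cases, with a median log2 fold change of 8.36 against 0.21 over all genes tested. Summed over the 5 genes they took 1.68% and 4.03% of the scaled counts of the pregnancy ER+ libraries, against 0.0302% and 0.0188% of the adult ER+ libraries. The promoters of the 3 with a RefSeq window (build GRCm38.p6, 250 bases before to 50 after the start) and of Glycam1, a mucin-like milk protein, are shown 5′ to 3′ on the gene's strand because prolactin acts on milk genes through STAT5. Capitals mark TTCNNNGAA, the letters that STAT5 binds, which reads as the same pattern on both strands. The windows are chr5:87665958-87666257 (plus strand) for Csn1s1, chr5:87774200-87774499 (plus) for Csn1s2a, chr5:87699376-87699675 (minus) for Csn2 and chr15:103565032-103565331 (minus) for Glycam1.
Csn1s1: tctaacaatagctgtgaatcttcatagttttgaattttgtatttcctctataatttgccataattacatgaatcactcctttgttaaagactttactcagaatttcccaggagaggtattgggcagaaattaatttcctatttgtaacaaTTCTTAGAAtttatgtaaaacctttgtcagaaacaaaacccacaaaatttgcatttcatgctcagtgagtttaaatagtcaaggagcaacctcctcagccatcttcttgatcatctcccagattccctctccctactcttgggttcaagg
Csn1s2a: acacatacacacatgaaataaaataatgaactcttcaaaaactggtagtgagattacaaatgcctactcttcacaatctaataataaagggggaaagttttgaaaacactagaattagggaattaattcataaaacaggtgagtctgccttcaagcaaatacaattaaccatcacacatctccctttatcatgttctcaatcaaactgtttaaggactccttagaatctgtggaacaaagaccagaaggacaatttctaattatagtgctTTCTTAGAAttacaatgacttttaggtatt
Csn2: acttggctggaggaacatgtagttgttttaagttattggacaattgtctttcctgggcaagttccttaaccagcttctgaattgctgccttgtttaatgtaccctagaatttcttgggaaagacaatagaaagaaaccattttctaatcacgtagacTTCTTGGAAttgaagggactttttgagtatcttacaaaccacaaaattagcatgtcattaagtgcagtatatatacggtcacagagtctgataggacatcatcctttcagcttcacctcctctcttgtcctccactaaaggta
Glycam1: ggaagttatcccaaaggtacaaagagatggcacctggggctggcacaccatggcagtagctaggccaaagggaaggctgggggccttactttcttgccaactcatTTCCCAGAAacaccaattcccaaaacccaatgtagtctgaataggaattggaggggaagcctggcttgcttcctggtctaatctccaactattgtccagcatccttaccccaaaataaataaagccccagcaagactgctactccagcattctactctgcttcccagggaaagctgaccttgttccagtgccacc
The match began at position -100 in Csn1s1, -93 in Csn2 and -145 in Glycam1, counted back from the start, and at position 21 after the start in Csn1s2a. All 3 casein genes with a window held a match, and so did 2 of 12 genes of the whey list with a window (Glycam1 and Pigr). A match stood in 9.55% of all 27025 mouse genes with a window, or 8.30% of 32851 windows. Among genes called higher in pregnancy 8.20% of 1707 with a window held it, and among genes called lower 8.70% of 724. Over all 11491 members with a window the share was 8.39%. A match is only a match of letters in this window.

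Csn2, the gene of beta casein, had 113910 and 249720 scaled counts in pregnancy ER+ cells, against 280 and 58 in adult ER+ cells (log2 fold change 10.36 ± 1.83 SE, n = 2 each, limma adjusted p = 0.00439). Csn1s2a, an alpha-S2 casein gene, had 76757 and 184130 in pregnancy, against 109 and 9 in adult cells (11.81 ± 2.19, limma adjusted p = 0.00552). Csn3, the kappa casein gene that stabilises the casein micelle, had 30515 and 81581 in pregnancy, against 4949 and 3209 in adult cells (3.65 ± 0.75, limma adjusted p = 0.00833). In each of these genes both pregnancy libraries lay above both adult libraries, as for 36.9% of all members, and replicate 2 held more than replicate 1. Csn1s1, the alpha-S1 casein gene, had 111860 and 284900 in pregnancy, against 652 and 454 in adult cells (8.36 ± 1.85, limma adjusted p = 0.0132). Csn1s1 and Csn3 were not called without pregnancy replicate 2 or without adult replicate 2, which left 3 of the 5 casein genes called each time. The summed casein values were 333110 and 800417 in pregnancy ER+ cells, 793400 and 89797 in pregnancy ER- cells and 277941 and 401474 in pregnancy basal cells. They were 5990 and 3730 in adult ER+ cells, 75975 and 47453 in adult ER- cells and 269261 and 37831 in adult basal cells. Casein sums of pregnancy basal cells and of pregnancy ER- replicate 1 thus lay within or near the range of pregnancy ER+ cells, and adult basal replicate 1 was close below it; whether reads from other cells contributed to the ER+ libraries was not tested.

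Genes of the whey fraction and other secreted milk proteins rose in 14 of 15 cases (median log2 fold change 5.16), with Ltf, which encodes lactoferrin, the member that limma did not call. Wap, the whey acidic protein gene, had 2504 and 3830 scaled counts in pregnancy ER+ cells, against 0 and 0 in adult ER+ cells, which makes it at least 264-fold higher (limma adjusted p = 6.66e-06). Glycam1 had 15529 and 40605 in pregnancy, against 0 and 0 in adult cells, at least 2340-fold higher (limma adjusted p = 0.0148). Neither gene had a read in adult ER+ cells, but the Glycam1 call was lost when any of the 4 libraries was left out, and puberty ER+ replicate 1 had 1617. Xdh, which coats milk fat globules together with butyrophilin, had 4778 and 10366 in pregnancy, against 388 and 512 in adult cells (3.98 ± 0.37, limma adjusted p = 2.48e-05). Btn1a1, the butyrophilin gene itself, had 3624 and 11744 in pregnancy, against 249 and 512 in adult cells (4.19 ± 0.69, limma adjusted p = 0.0025). Spp1, which encodes the milk phosphoprotein osteopontin, had 6349 and 21706 in pregnancy, against 47 and 363 in adult cells (6.47 ± 1.35, limma adjusted p = 0.00959; not called without pregnancy replicate 2 or adult replicate 1). In Xdh, Btn1a1 and Spp1 both pregnancy libraries lay above both adult libraries, as for 36.9% of all members. Trf, the transferrin gene, had 397 and 1069 in pregnancy, against 24 and 9 in adult cells (5.37 ± 0.47, limma adjusted p = 3.65e-06), and kept its call under every alternative tried but the fit on 4 libraries. Without pregnancy replicate 2, 6 of the 15 were called.

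Milk fat genes rose in 13 of 24 cases by limma (median log2 fold change 1.38), which called 0 lower, while edgeR and DESeq2 each called 1 lower. Fatty acid synthase, Fasn, had 14584 and 39475 scaled counts in pregnancy ER+ cells, against 7175 and 5468 in adult ER+ cells (1.94 ± 0.50, limma adjusted p = 0.0228; not called without pregnancy replicate 2 or either adult library, nor under quantile normalization or library weights). Plin2, which coats lipid droplets, had 6131 and 16523 in pregnancy, against 823 and 561 in adult cells (3.89 ± 0.58, limma adjusted p = 0.00128). Fabp3, a fatty acid binding protein, had 1348 and 4963 in pregnancy, against 8 and 0 in adult cells, where the 8 is a single read; the ratio was 782, with a 95% counting interval of 140 to 3.09e+04. A droplet coat gene, a fatty acid carrier gene and a synthesis enzyme gene were thus among the rises. In each of the 3 the groups did not overlap, as for 36.9% of all members in this direction. For Fabp3 the entry rule fixed this, so it is no separate evidence. Lpl, lipoprotein lipase, had 4045 and 8971 in pregnancy, against 194 and 198 in adult cells (4.93 ± 0.64, limma adjusted p = 0.000546). Its puberty values of 5648 and 2082 overlapped the pregnancy values. Thrsp, a lipogenic regulator, had 961 and 2735 in pregnancy, against 24 and 9 in adult cells (6.68 ± 1.21, limma adjusted p = 0.00405). Scd1, a desaturase, had 10356 and 26084 in pregnancy, against 5926 and 5427 in adult cells and was not called by limma (1.53 ± 0.59, adjusted p = 0.104) but was by edgeR and DESeq2. Dgat1, Gpam and Slc25a1 were not called. Without pregnancy replicate 2, 8 of the 24 were called higher.

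**Figure D2:**
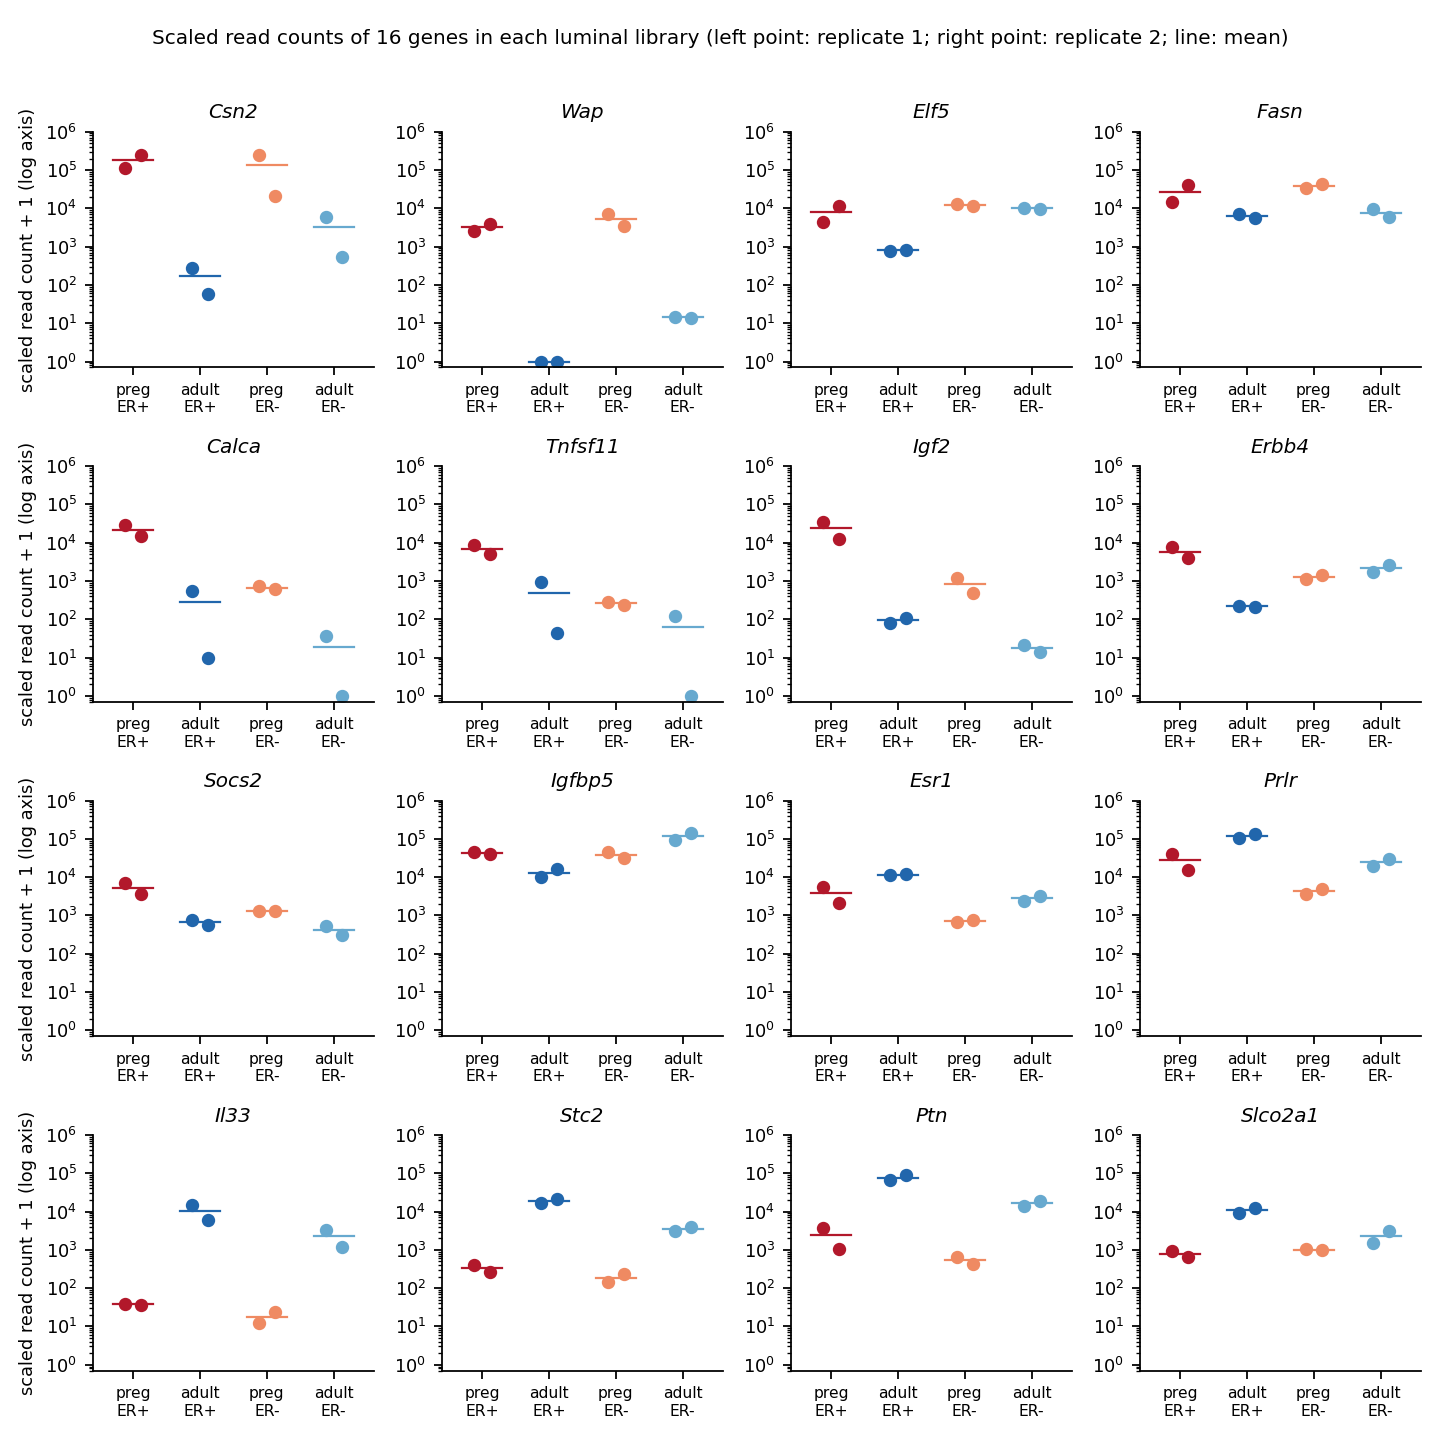
Scaled counts (log axis, value + 1) of 16 genes in pregnancy ER+, adult ER+, pregnancy ER- and adult ER- luminal libraries, with replicate 1 left, replicate 2 right and the mean as a line. Csn2, Wap, Elf5 and Fasn have overlapping or neighbouring levels in pregnancy ER+ and pregnancy ER- cells, Calca, Tnfsf11, Igf2 and Erbb4 are highest in pregnancy ER+ cells, and Il33, Stc2, Ptn and Slco2a1 are highest in adult ER+ cells.

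Regulators of alveolar development rose in 6 of 9 cases and fell in 1. Elf5, the master factor of the alveolar lineage and an ER- luminal marker, had 4329 and 11434 scaled counts in pregnancy ER+ cells, against 776 and 833 in adult ER+ cells (3.13 ± 0.68, limma adjusted p = 0.0105; not called without pregnancy replicate 2). It stood at 12758 and 11272 in pregnancy ER- cells, and at 10504 and 9673 in adult ER- cells. The level in pregnancy ER+ replicate 2 was thus within the range of ER- libraries, and that of replicate 1 below it. Erbb4, the neuregulin receptor that activates STAT5 in the gland, had 7643 and 3920 in pregnancy ER+ cells, against 225 and 215 in adult ER+ cells (4.63 ± 0.39, limma adjusted p = 3.27e-06). In ER- cells it had 1128 and 1401 in pregnancy and 1698 and 2569 in adult mice. Erbb4 was the member whose ER+ values exceeded the ER- values in pregnancy, and its pregnancy change differed between the cell types (difference of log2 fold changes 5.36, limma adjusted p = 0.000305). Tnfrsf11a, the receptor RANK, had 733 and 1780 in pregnancy ER+ cells, against 163 and 157 in adult ER+ cells (2.83 ± 0.33, limma adjusted p = 5.79e-05). Id2 and Sox10 rose by 2.16 ± 0.25 and 2.35 ± 0.36 on the log2 scale, with limma adjusted p of 4.1e-05 and 0.000722. Sox9, a factor of luminal progenitors, had 2875 and 4424 in pregnancy, against 9463 and 12652 in adult cells (-1.62 ± 0.23, limma adjusted p = 0.000272), the member that fell.

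ER- luminal markers rose in 3 of 7 cases (Elf5, Kit and Rspo1) and in 0 of 7 without pregnancy replicate 2. Rspo1, an R-spondin that amplifies WNT signals, had 1260 and 3414 scaled counts in pregnancy ER+ cells, against 101 and 25 in adult ER+ cells (5.33 ± 1.18, limma adjusted p = 0.011; not called without pregnancy replicate 2 or adult replicate 2). Kit, a stem cell factor receptor, had 4749 and 10178 in pregnancy, against 1288 and 2301 in adult cells (2.01 ± 0.50, limma adjusted p = 0.0182; not called without pregnancy replicate 2 or adult replicate 1). Their values in pregnancy ER- cells were 4213 and 4844 for Rspo1 and 12906 and 14408 for Kit, above both ER+ libraries. For Kit, Rspo1, Elf5, Id2 and Sox10 pregnancy ER+ replicate 2 thus lay nearer to the pregnancy ER- libraries than replicate 1 did.

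Other genes that rose had higher levels in ER+ than in ER- cells of pregnancy, and several of them were higher in replicate 1. Among 12 secreted signals of hormone-sensing cells, 5 rose (Calca, Igf2, Pthlh, Adamts18, Cxcl12) and 3 fell (Stc2, Wnt5a, Inhbb). Calca, which encodes calcitonin and the neuropeptide CGRP, had 28214 and 14970 scaled counts in pregnancy ER+ cells, against 551 and 9 in adult ER+ cells (8.11 ± 1.94, limma adjusted p = 0.0163). It had 731 and 609 in pregnancy ER- cells and 35 and 0 in adult ER- cells. The adult pair differed widely, and the call was lost without either pregnancy library or without adult replicate 2. Igf2, a fetal-type growth factor, had 34700 and 12642 in pregnancy ER+ cells, against 78 and 108 in adult ER+ cells (7.82 ± 1.47, limma adjusted p = 0.00514). In pregnancy ER- cells Igf2 had 1222 and 489. Tnfsf11, which encodes RANKL, the paracrine signal of progesterone to alveolar progenitors, had 8763 and 5044 in pregnancy, against 939 and 42 in adult cells, and was not called by limma (5.05 ± 2.13, adjusted p = 0.134) but was by edgeR. Its puberty values were 0 and 3, and against puberty the change was called (11.70, limma adjusted p = 0.00469). Both pregnancy libraries exceeded every adult and puberty ER+ library for Calca, Igf2 and Tnfsf11. Adamts18 and Cxcl12 were not biased in this way: pregnancy basal cells had 8872 and 8063 for Adamts18, against 821 and 495 in pregnancy ER+ cells, and 3669 and 3461 for Cxcl12, against 920 and 420 in pregnancy ER+ cells. The Adamts18 call was lost when any of the 4 libraries was left out, and that of Cxcl12 without pregnancy replicate 1.

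Areg and Wnt4, which encode the other well-known paracrine signals of these cells, were not called. Areg, amphiregulin, had 7671 and 2790 scaled counts in pregnancy ER+ cells, against 20221 and 9221 in adult ER+ cells (-1.56 ± 0.79, limma adjusted p = 0.21). Wnt4 had 7596 and 3578 in pregnancy, against 5887 and 3572 in adult cells, with overlapping groups (0.19 ± 0.64, limma adjusted p = 0.887). Neither difference passed the test, and both genes were far higher in pregnancy ER+ than in pregnancy ER- cells, where Areg had 246 and 200 and Wnt4 616 and 999.

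Several other genes had the same order of levels. Pnmt, which encodes the enzyme that converts noradrenaline to adrenaline, had 1011 and 1179 scaled counts in pregnancy ER+ cells, against 0 and 0 in adult ER+ cells, at least 91.3-fold higher (limma adjusted p = 1.72e-05). In pregnancy ER- cells it had 27 and 31. Lgi2, a secreted leucine-rich protein, had 615 and 1089 in pregnancy ER+ cells, against 0 and 0 in adult ER+ cells, at least 71.0-fold higher (limma adjusted p = 4.32e-06). In pregnancy ER- cells Lgi2 had 38 and 23, so both genes were far lower in ER- than in ER+ cells of pregnancy. Atp7b, a copper pump, had 7877 and 6252 in pregnancy ER+ cells, against 202 and 0 in adult ER+ cells (8.94 ± 1.89, limma adjusted p = 0.00882; not called without pregnancy replicate 2). Sftpd, the surfactant protein D gene, had 677 and 307 in pregnancy, against 0 and 0 in adult cells, at least 41.0-fold higher (limma adjusted p = 0.00034). Ano1, a calcium-activated chloride channel, was abundant at every stage and had 32794 and 30808 in pregnancy ER+ cells, against 12030 and 10903 in adult ER+ cells (1.47 ± 0.14, limma adjusted p = 5.43e-06). The replicates of Ano1 and Pnmt lay close together within each group, unlike those of the milk genes.

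**Figure D3:**
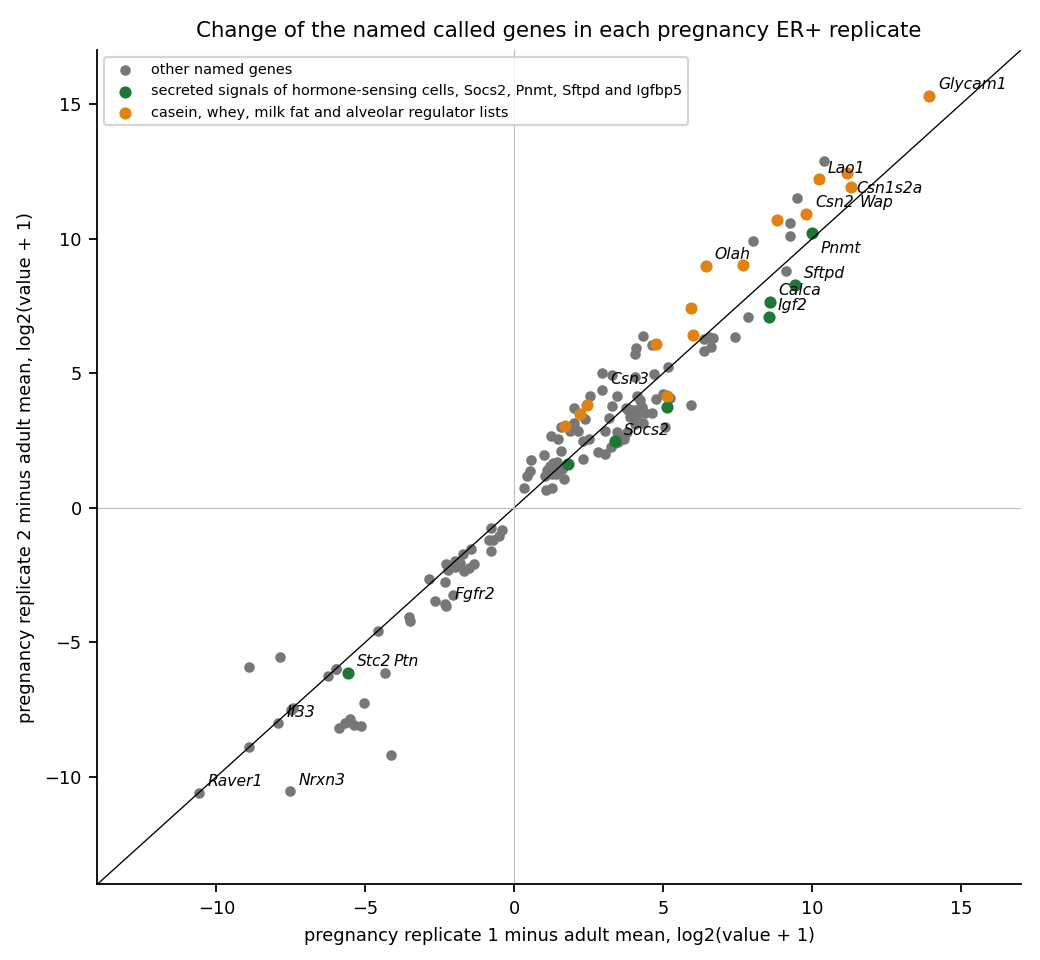
Log2(scaled count + 1) of pregnancy ER+ replicate 1 (x axis) and replicate 2 (y axis), each minus the mean of the adult ER+ libraries on that scale, for the named genes that were called. Most genes of the casein, whey, milk fat and alveolar lists (orange) lie above the diagonal, where replicate 2 is higher, and most secreted signals with Socs2, Sftpd and Igfbp5 (green) lie below it, with Pnmt just above.

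Hormone receptors changed in mixed directions. The 3 receptors that define the cells had lower values in both pregnancy libraries and were not called in the main limma fit. DESeq2 called all 3 lower and edgeR called Prlr lower. Limma also called Prlr lower with median-ratio or TMM factors, with a filter of at least 30 in at least 2 libraries, and on the 18053 genes alone. Esr1 changed by -1.76 ± 0.62 (limma adjusted p = 0.077). Prlr, the prolactin receptor gene, had 39380 and 15215 scaled counts in pregnancy ER+ cells, against 106210 and 137120 in adult ER+ cells (-2.30 ± 0.75, limma adjusted p = 0.0611). Pgr, the progesterone receptor gene, had 8900 and 3694 in pregnancy, against 14528 and 20643 in adult cells (-1.59 ± 0.68, limma adjusted p = 0.14). In none of the 3 did the groups overlap, as for 22.6% of all members in this direction, and replicate 2 was lower than replicate 1 each time. Of the 12 hormone receptor genes, 4 rose and 2 fell. Thrb, a thyroid hormone receptor gene, had 434 and 834 in pregnancy, against 94 and 75 in adult cells (2.83 ± 0.34, limma adjusted p = 5.64e-05). Nr3c1, the glucocorticoid receptor gene, had 1924 and 3714 in pregnancy, against 908 and 1015 in adult cells (1.48 ± 0.25, limma adjusted p = 0.00103). Vdr, the vitamin D receptor gene, rose by 1.16 ± 0.29 (limma adjusted p = 0.0124; not called without pregnancy replicate 2 or either adult library). Ghr, the growth hormone receptor gene, rose by 1.00 ± 0.21 against adult cells (limma adjusted p = 0.00441; not called without pregnancy replicate 2) but was lower than in puberty (-0.89, limma adjusted p = 0.0105; not called without pregnancy replicate 1 or puberty replicate 1). Nr3c2, the mineralocorticoid receptor gene, had 393 and 391 in pregnancy, against 986 and 1732 in adult cells (-1.73 ± 0.27, limma adjusted p = 0.000446), and Thra fell by 0.82 ± 0.19 (limma adjusted p = 0.00761; not called without adult replicate 2).

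Of the 11 ER+ luminal markers 0 were called in the main limma fit against adult cells, where DESeq2 called 5 lower and 0 higher and edgeR called 1 higher and 1 lower. Limma called 1 lower with median-ratio or TMM factors, with a filter of at least 30 in at least 2 libraries, and on the 18053 genes alone. The median log2 fold change of the 11 was -1.56. It was -2.23 without pregnancy replicate 1 and -0.83 without pregnancy replicate 2. Foxa1, the pioneer factor of the estrogen receptor, had 7646 and 3239 in pregnancy, against 19150 and 17575 in adult cells (-1.88 ± 0.72, limma adjusted p = 0.103; called by DESeq2). Among 13 transcription factors of ER+ cells, Tfap2c rose and Grhl2 and Runx1 fell. Runx1, a factor that holds the ER+ luminal fate, had 5248 and 4427 in pregnancy, against 16056 and 21526 in adult cells (-1.95 ± 0.28, limma adjusted p = 0.000526). Tfap2c, an AP-2 factor, had 1064 and 1760 in pregnancy, against 256 and 231 in adult cells (2.49 ± 0.24, limma adjusted p = 6.26e-06). Gata3, the luminal master factor, and the keratin gene Krt8 were not called, and Krt18 and Krt19 were called lower by DESeq2 alone.

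Il33 fell to near the floor in pregnancy. It encodes an alarmin, a nuclear cytokine of the IL-1 family that epithelial cells release on damage, and had 38 and 36 scaled counts in pregnancy ER+ cells, against 14978 and 6120 in adult ER+ cells (-7.98 ± 0.62, limma adjusted p = 7.33e-06). In ER- cells it had 11 and 23 in pregnancy and 3347 and 1153 in adult mice, and in puberty ER+ cells 8805 and 12916. Every pregnancy luminal library was thus far below every adult and puberty luminal library named here. Il1r1, the IL-1 receptor gene, had 696 and 343 in pregnancy ER+ cells, against 1397 and 1081 in adult ER+ cells (-1.33 ± 0.28, limma adjusted p = 0.00462; not called without pregnancy replicate 2). Of the 13 genes of this family 4 rose, among them Il1rap, the co-receptor of IL-1 and IL-33, with 312 and 407 in pregnancy, against 109 and 149 in adult cells (1.48 ± 0.25, limma adjusted p = 0.000754). Il1rl1, the IL-33 receptor gene, had 13 and 30 in pregnancy, against 24 and 91 in adult cells and was not called (limma adjusted p = 0.518).

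Genes of high abundance in adult ER+ cells were among the other falls. Ptn, which encodes the growth factor pleiotrophin, had 3761 and 1073 scaled counts in pregnancy ER+ cells, against 64872 and 89499 in adult ER+ cells (-5.24 ± 0.67, limma adjusted p = 0.000585). Stc2, which encodes the glycoprotein hormone stanniocalcin 2, had 390 and 265 in pregnancy, against 17149 and 20825 in adult cells (-5.87 ± 0.96, limma adjusted p = 0.00242). Slco2a1, a prostaglandin transporter gene, had 923 and 646 in pregnancy, against 9354 and 12544 in adult cells (-3.81 ± 0.42, limma adjusted p = 0.000128). For all 3 the puberty values were as high as or close to the adult ones: 56114 and 57507 for Ptn, 24109 and 29721 for Stc2, 22520 and 28014 for Slco2a1. Slc12a2, a sodium, potassium and chloride cotransporter gene, had 18192 and 10285 in pregnancy, against 145690 and 90118 in adult cells (-3.07 ± 0.71, limma adjusted p = 0.0148; not called without pregnancy replicate 2 or adult replicate 1). Fgfr2, the receptor of fibroblast growth factors needed for ductal growth, had 4123 and 1618 in pregnancy, against 15226 and 27472 in adult cells (-2.98 ± 0.48, limma adjusted p = 0.00182). Cd164, a sialomucin gene, had 18161 and 13278 in pregnancy, against 65625 and 123710 in adult cells (-2.54 ± 0.52, limma adjusted p = 0.00765; not called without pregnancy replicate 2 or adult replicate 2). Groups did not overlap in any of these, but genes were named partly for the size of their change, so this is no separate evidence. ER+ markers as a whole were also lower in the pregnancy libraries, as given above. The part of a changed cell makeup in these falls was not tested.

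Smaller or lower-abundance falls included Nrxn3, a synaptic adhesion gene, with 7 and 0 scaled counts in pregnancy ER+ cells, against 714 and 3101 in adult ER+ cells; the ratio was 0.0017, with a 95% counting interval of 0.000205 to 0.00616. Sprr1a, a gene of the cornified envelope, had 50 and 7 in pregnancy, against 2956 and 1559 in adult cells (-6.73 ± 1.23, limma adjusted p = 0.00355). Ly6d, a surface marker gene, had 22 and 4 in pregnancy, against 396 and 1444 in adult cells (-6.14 ± 1.21, limma adjusted p = 0.00634; not called without pregnancy replicate 2 or adult replicate 2). These genes were at or near the floor in pregnancy and were well expressed in puberty, where Sprr1a had 2047 and 2139 and Ly6d 5672 and 8783.

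The JAK-STAT5 list changed in 4 of 11 members. Socs2, a feedback inhibitor that STAT5 induces, had 6860 and 3636 scaled counts in pregnancy ER+ cells, against 776 and 561 in adult ER+ cells (2.92 ± 0.46, limma adjusted p = 0.001). Cish, another target of STAT5, had 1176 and 1392 in pregnancy, against 753 and 693 in adult cells, without overlap and without a call (0.82 ± 0.30, limma adjusted p = 0.0712). Stat5a itself had 4650 and 7269 in pregnancy, against 6965 and 5510 in adult cells, with overlapping groups (limma adjusted p = 0.854). The Socs2 level in pregnancy ER- cells was 1286 and 1303, below both pregnancy ER+ libraries. Ptpn1, a phosphatase gene, had 2358 and 1402 in pregnancy, against 5980 and 7497 in adult cells (-1.88 ± 0.27, limma adjusted p = 0.000268). Jak2 fell by 0.62 ± 0.17 (limma adjusted p = 0.0199) and Socs1 rose by 1.33 ± 0.37 (limma adjusted p = 0.0222), and both calls were lost in several alternatives, Socs1 among them under edgeR and DESeq2.

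Among genes that serve secretion, 6 of 12 amino acid transporter genes rose, 4 of 19 genes of protein folding in the endoplasmic reticulum rose and 1 fell, and 2 of 11 genes of lactose synthesis rose and 1 fell. Slc7a5, the LAT1 transporter of large neutral amino acids, had 1123 and 2984 scaled counts in pregnancy ER+ cells, against 412 and 347 in adult ER+ cells (2.27 ± 0.36, limma adjusted p = 0.000841). Xbp1, the transcription factor that expands the secretory apparatus, had 8055 and 9016 in pregnancy, against 3731 and 4248 in adult cells (1.10 ± 0.20, limma adjusted p = 0.00132). Lalba, the alpha-lactalbumin gene needed for lactose synthesis, had only 294 and 637 in pregnancy, against 39 and 132 in adult cells (2.57 ± 0.77, limma adjusted p = 0.0399), a call that was lost under 4 settings that kept every library and without either pregnancy library or adult replicate 1. Lalba in puberty, at 376 and 166, overlapped the pregnancy values. Gap junction genes rose in 3 of 5 cases (Gja1, Gjb2 and Gjb6). Gjb6, connexin 30, had 715 and 2884 in pregnancy, against 0 and 0 in adult cells, at least 150.0-fold higher (limma adjusted p = 0.000118). Gjb2, connexin 26, had 2339 and 8344 in pregnancy, against 171 and 108 in adult cells (5.01 ± 1.00, limma adjusted p = 0.00681; not called without pregnancy replicate 2). Gjb2 and Gjb6 were higher still in pregnancy ER- cells, with 8408 and 10382 for Gjb2 and 2504 and 4326 for Gjb6.

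In the insulin-like growth factor axis 10 of 12 members rose, with a median log2 fold change of 2.57; 0 were called lower by limma or by edgeR, which called 9 higher, and Igf1r and Igf2r were the members without a call. Igfbp5, an IGF binding protein, had 44210 and 39455 scaled counts in pregnancy ER+ cells, against 10153 and 16198 in adult ER+ cells (1.70 ± 0.28, limma adjusted p = 0.0013). In ER- cells Igfbp5 had 45938 and 31304 in pregnancy, against 92482 and 141720 in adult mice, so the cell types differed in its direction (difference 3.30, limma adjusted p = 0.00166). Irs2, an adaptor of the insulin and IGF1 receptors, had 7035 and 13359 in pregnancy ER+ cells, against 2025 and 3382 in adult ER+ cells (1.89 ± 0.29, limma adjusted p = 0.000794). Igf1, Igfbp3, Igfbp4 and Igfbp7 also rose but lay higher in pregnancy basal cells than in pregnancy ER+ cells, and none of these 4 rose against puberty. Without pregnancy replicate 2 the list still had 10 of 12 called.

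Among 13 tested genes of the EGF family, 3 rose and 3 fell. Egfr had 2127 and 2241 scaled counts in pregnancy ER+ cells, against 326 and 438 in adult ER+ cells (2.53 ± 0.23, limma adjusted p = 3.39e-06), and the cell types differed (difference 2.95, limma adjusted p = 0.000305), since ER- cells had 2887 and 3320 in pregnancy and 3961 and 4330 in adult mice. Of the ligands, Nrg1 rose by 3.75 ± 0.58 (limma adjusted p = 0.00105) and is far more abundant in pregnancy basal cells, at 6221 and 4484, than the 593 and 262 in pregnancy ER+ cells. Btc, Tgfa and Nrg4 fell, the ligand betacellulin with 290 and 214 in pregnancy, against 854 and 644 in adult cells (-1.57 ± 0.27, limma adjusted p = 0.000885). Of the receptors Egfr and Erbb4 thus rose and Erbb2 and Erbb3 were not called, while 3 ligand genes fell. Without pregnancy replicate 2 only Btc of these ligands was called lower, and without adult replicate 2 Tgfa was not called.

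WNT pathway genes rose in 10 of 19 cases and fell in 3, and 4 and 1 were called without pregnancy replicate 2. Wnt5a, a non-canonical ligand, had 490 and 272 scaled counts in pregnancy ER+ cells, against 1668 and 4660 in adult ER+ cells (-2.93 ± 0.37, limma adjusted p = 0.000157). Wnt7b, also a ligand, had 153 and 101 in pregnancy, against 1071 and 1370 in adult cells (-3.27 ± 0.81, limma adjusted p = 0.0168; not called without pregnancy replicate 2 or either adult library). Lgr4, a receptor of R-spondins, had 2271 and 5144 in pregnancy, against 668 and 627 in adult cells (2.40 ± 0.36, limma adjusted p = 0.000717). Ligands went both ways, with Wnt5b higher by 2.58 ± 0.40 (limma adjusted p = 0.000648). Notch pathway genes rose in 4 of 14 cases and in 0 without pregnancy replicate 2; Notch1 had 4665 and 8280 in pregnancy, against 3064 and 3440 in adult cells (0.94 ± 0.21, limma adjusted p = 0.00606; not called without pregnancy replicate 2).

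Basement membrane and matrix genes rose in 17 of 20 cases, with a median log2 fold change of 2.53, and the count over the alternatives that used the shared spread was 13 to 18. Col4a1, a collagen IV chain, had 9885 and 6116 scaled counts in pregnancy ER+ cells, against 536 and 759 in adult ER+ cells (3.61 ± 0.41, limma adjusted p = 0.000166). Tnc, the gene of the matrix protein tenascin C, had 986 and 3155 in pregnancy, against 70 and 50 in adult cells (4.87 ± 0.47, limma adjusted p = 1.75e-05). Summed over the list, pregnancy ER+ cells had 111324 and 80069 and pregnancy basal cells 500780 and 454624, against 27730 and 32207 in adult ER+ cells. The matrix is made mainly by basal and stromal cells, whose markers are given below. The part of such cells in the matrix rises was not tested.

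Of 16 basal markers 11 rose and 1 fell; their sum was 47965 and 35732 in pregnancy ER+ cells, against 4476 and 5580 in adult ER+ cells. It was 380018 and 368269 in pregnancy basal cells. Krt14, a basal keratin gene, had 2227 and 1663 in pregnancy ER+ cells, against 272 and 429 in adult ER+ cells (2.49 ± 0.62, limma adjusted p = 0.0188; not called without either pregnancy library or adult replicate 1), and 20793 and 17060 in pregnancy basal cells. Oxtr, the oxytocin receptor gene, had 3100 and 4395 in pregnancy ER+ cells, against 350 and 289 in adult ER+ cells (3.53 ± 0.57, limma adjusted p = 0.00201). Acta2, smooth muscle actin, had 10325 and 7773 in pregnancy, against 745 and 825 in adult cells and was not called in the main limma fit (3.51 ± 1.12, adjusted p = 0.0569). It was called by edgeR and DESeq2. Limma called it with quantile normalization, median-ratio or TMM factors, a replicate block, a filter of at least 30 in at least 2 libraries, or the 18053 genes alone. Tagln, another contractile gene, went the other way with 29 and 17 in pregnancy, against 311 and 363 in adult cells (-3.86 ± 0.69, limma adjusted p = 0.00149), and it was low in pregnancy basal cells too, at 162 and 232. Tagln also had only 35 and 11 in puberty ER+ cells, so the adult luminal set stood apart from both other sets. Of 10 fibroblast markers 6 rose, with sums of 82340 and 40144 in pregnancy, against 8724 and 7023 in adult cells; Col3a1 had 30184 and 14460 in pregnancy, against 2614 and 2153 in adult cells (3.14 ± 0.79, limma adjusted p = 0.0211; not called when any of the 4 libraries was left out). Without pregnancy replicate 2 the counts called were 6 basal and 4 fibroblast markers, and without pregnancy replicate 1 they were 6 and 1. Against puberty 10 basal and 0 fibroblast markers were called higher in limma, and puberty ER+ replicate 2 alone had a fibroblast sum of 62516.

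Endothelial, erythroid and pericyte markers had higher sums in pregnancy, with median log2 fold changes of 3.39, 3.41 and 2.97. With a group at 0 set to its limit of 3 reads, the endothelial and pericyte medians were 3.02 and 2.6. Endothelial markers summed to 10793 and 6541 in pregnancy ER+ cells, against 2239 and 1833 in adult ER+ cells, with 4 of 10 called higher and Cldn5 at 0 in both adult libraries. Pericyte markers summed to 8463 and 6148 in pregnancy, against 5154 and 5380 in adult cells, with 3 of 6 higher and Kcnj8 at 0 in adult cells. Immune markers summed to 1869 and 1560 in pregnancy, against 835 and 896 in adult cells, with 2 of 14 higher; Ms4a1 and Nkg7 were at 0 in adult cells. Adipocyte markers summed to 3172 and 2199 in pregnancy, against 841 and 1108 in adult cells, with 1 of 9 higher (Fabp4, not called without pregnancy replicate 1 or adult replicate 1), while Adipoq and Cidec were at 0 in both pregnancy libraries and Lep and Retn in both adult ones. Erythroid markers summed to 639 and 331 in pregnancy, against 156 and 183 in adult cells, with 2 of 4 higher. Against puberty limma called 0 endothelial, 0 pericyte and 0 erythroid markers higher, 1 of 14 immune markers higher and 6 of 9 adipocyte markers lower. Endothelial sums in puberty ER+ cells were 14698 and 3044. Of 4 Schwann cell markers Sox10, which ER- luminal cells also carry, rose against adult cells, and the median log2 fold change of the 4 was -0.17. The part of these cells in the rises of matrix, IGF and WNT genes was not tested.

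Proliferation genes had higher means in pregnancy, and the adult replicates differed widely. Mki67, the marker of cycling cells, had 11348 and 14912 scaled counts in pregnancy ER+ cells, against 6322 and 1163 in adult ER+ cells (2.26 ± 1.12, limma adjusted p = 0.205). The cell cycle list summed to 38637 and 44281 in pregnancy, against 21542 and 8606 in adult cells, and to 11135 and 8522 in puberty ER+ cells. Of 24 members 2 rose: Pcna, the sliding clamp of DNA replication, with 2283 and 2015 in pregnancy, against 970 and 578 in adult cells (1.52 ± 0.21, limma adjusted p = 0.000184), and E2f1, whose call was lost without either pregnancy library or adult replicate 2. DESeq2 called 6 of the 24 higher and edgeR 3. Both pregnancy libraries exceeded both adult libraries for Mki67 and Pcna, and without adult replicate 1, the higher of the adult libraries, 6 members were called.

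Lists outside milk, hormone and growth factor pathways gave the following counts. Antigen presentation genes had 0 of 12 called in limma and edgeR, and 1 lower under quantile normalization. Interferon response genes had 2 higher and 1 lower of 18, cholesterol synthesis 5 higher of 21 (1 without adult replicate 2), tight junctions 2 higher of 11, and calcium, phosphate and zinc transport 2 higher of 9. Immediate-early and stress genes, which report handling of the tissue, had 5 higher and 1 lower of 19, and 1 and 1 without pregnancy replicate 2; Fos had 39149 and 51926 in pregnancy, against 38370 and 45138 in adult cells (0.12 ± 0.31, limma adjusted p = 0.844). Jund, an AP-1 gene, had 1616 and 1841 in pregnancy, against 6996 and 8850 in adult cells (-2.19 ± 0.28, limma adjusted p = 0.000116), in ER- cells it had 1780 and 1837 in pregnancy against 6455 and 9711 in adult mice, and in puberty ER+ cells 2646 and 3256. Small nucleolar RNAs were lower in 52 of 158 cases (32.9%) and higher in 3, against adult cells, whereas 0 were called lower by limma against puberty. Snord111 had 4 and 0 in pregnancy, against 287 and 231 in adult cells, a ratio of 0.00611 with a 95% counting interval of 0.000152 to 0.0352. In ER- cells 54 of the same 158 were lower, so this fall appeared in both comparisons that use the adult luminal set, with which stage cannot be told apart.

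**Figure D4:**
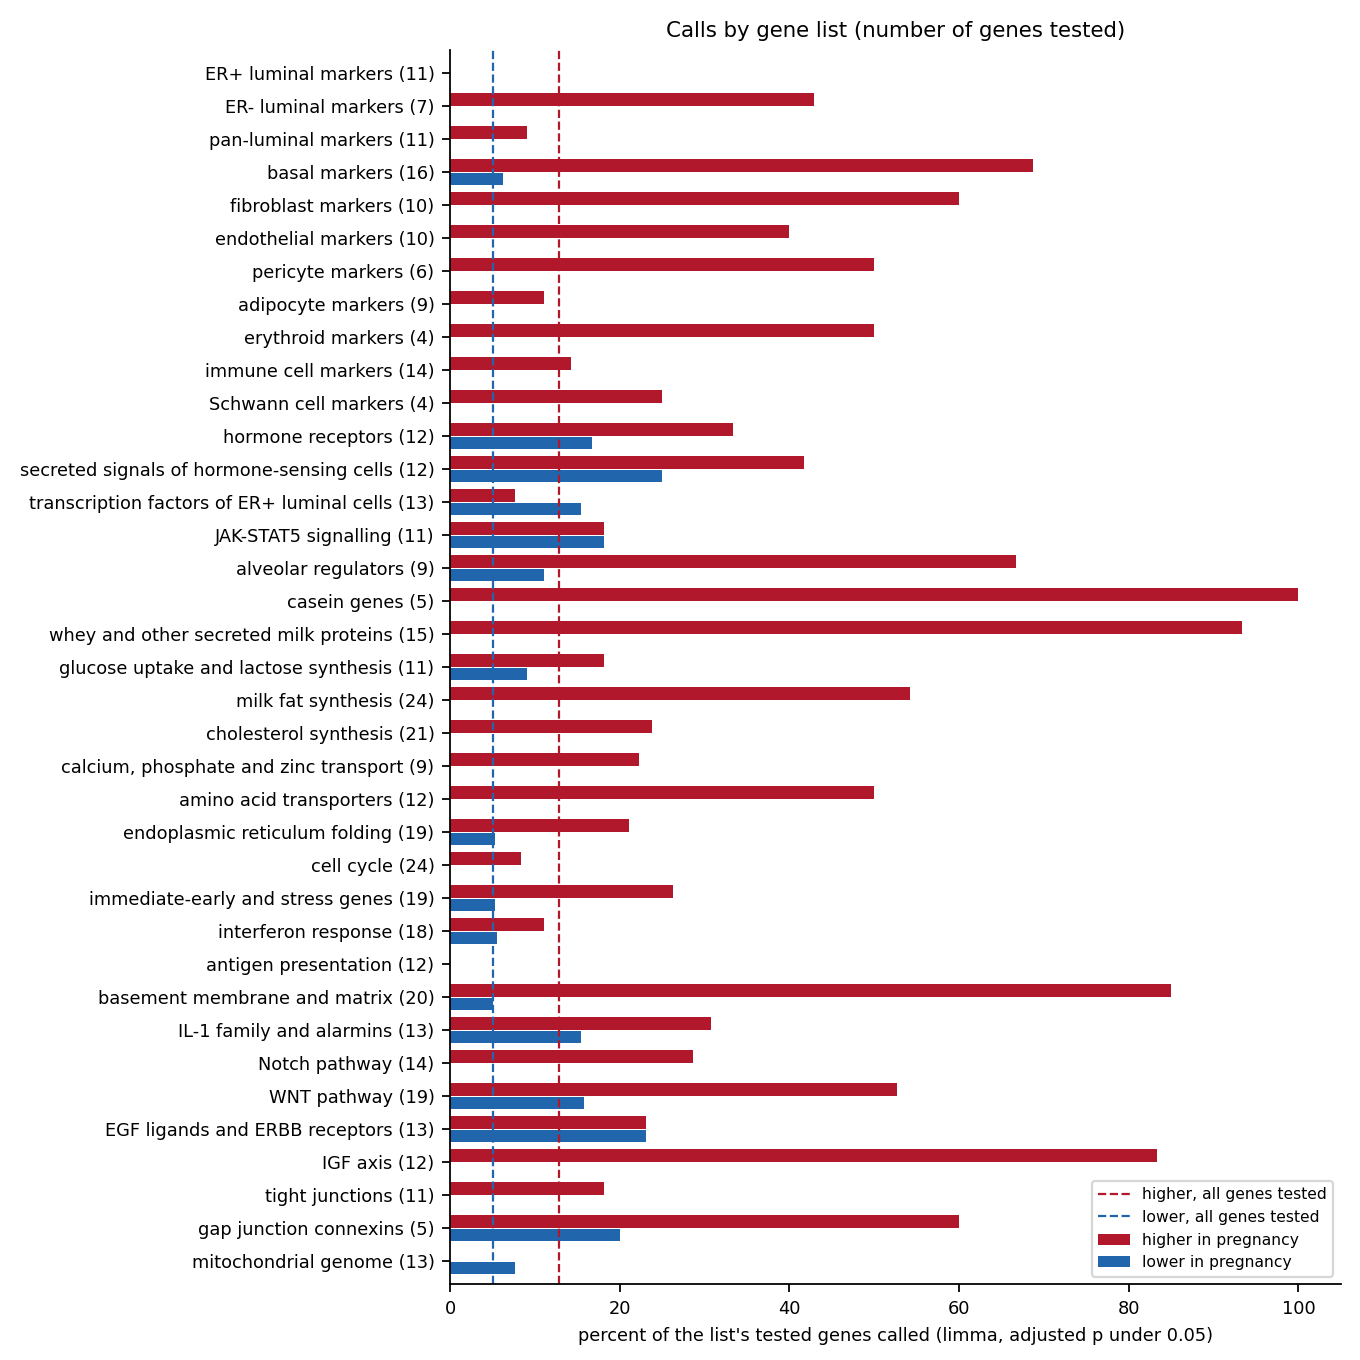
Genes called higher and lower in pregnancy than in adult ER+ luminal cells, as a percentage of the tested members of each gene list (bars), with dashed lines at the shares over all genes tested, 12.8% higher and 5.04% lower. Caseins, whey proteins, matrix, IGF axis and basal markers lie furthest above the line, and ER+ luminal markers have no call.

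Puberty ER+ cells gave a second group to set beside the pregnancy libraries, and it shares those libraries with the adult comparison. In limma 1637 genes were higher and 1279 lower in pregnancy than in puberty, 7.35% and 5.74% of the 22269 tested, or 13.1% in all. All 5 caseins were called higher in this comparison as well, with Csn2 at 113910 and 249720 in pregnancy, against 77 and 3 in puberty (13.22, limma adjusted p = 0.00127). Csn3 was not called without pregnancy replicate 2 or puberty replicate 2. Esr1 fell to 5666 and 2096 in pregnancy, against 18278 and 24264 in puberty (-2.61, limma adjusted p = 0.0187), and so did the ER+ markers Ly6a and Tbx3; the 3 calls were lost without pregnancy replicate 2 or puberty replicate 2, and that of Esr1 also without puberty replicate 1. Of the 11 ER+ luminal markers, limma called these 3 lower and 1 higher than in puberty, Tnfsf11, and did not call the rest. Il33 (-8.13, limma adjusted p = 1.23e-05), Nrxn3 and Ly6d were lower, and Wap, Lao1, Atp7b and Pnmt higher, than in either earlier stage. Matrix genes were called higher in 9 of 20 cases against puberty, and of the IGF axis 4 were higher and 1 lower of 12. Igf1, Lpl and the fibroblast collagens, called higher against adult cells, were not called against puberty, where Lpl changed by 0.81 (limma adjusted p = 0.494) and Col1a1 by 1.04 (limma adjusted p = 0.413). Puberty libraries were of a further set, so stage and set cannot be told apart here either.

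The pregnancy change itself was compared between ER+ and ER- luminal cells, which stays within the adult luminal and pregnancy sets. For 376 members the difference was higher in ER+ cells and for 46 it was lower (2.08% and 0.255% of 18053, 2.34% in all). Over all genes tested the shares were 1.85% and 0.225%, 2.07% in all. Besides Erbb4, Egfr and Igfbp5, Ano1 changed more in ER+ cells (difference 1.38, limma adjusted p = 0.002); its ER- values were 16624 and 18526 in pregnancy, against 16339 and 16690 in adult mice. For Slco2a1 the difference was -2.68 (limma adjusted p = 0.0456), a call lost when any of 7 of the 8 libraries of the contrast was left out, and under edgeR; ER- cells had 1033 and 962 in pregnancy, against 1527 and 3120 in adult mice. Il33 did not show a difference that passed the test (-1.12, limma adjusted p = 0.59), and neither did Csn2 (5.02, limma adjusted p = 0.401), Calca (1.31, limma adjusted p = 0.872) or Socs2 (1.26, limma adjusted p = 0.384). Trf, Mfge8, Thbs1, Sparc and Lamb1 were also called higher in the difference, and adult ER- cells held more of each than adult ER+ cells; Lamb1 was not called without pregnancy ER- replicate 2. Pregnancy ER- replicate 2 stood apart, with caseins at 0.453% of its scaled counts, against 3.997% in replicate 1, and mitochondrial genes at 0.615%; without it 210 genes were called higher and 3 lower in the difference, against 411 and 50 with it. Without adult ER- replicate 2 the counts were 179 and 23, and library weights gave 198 and 6.

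**Figure D5:**
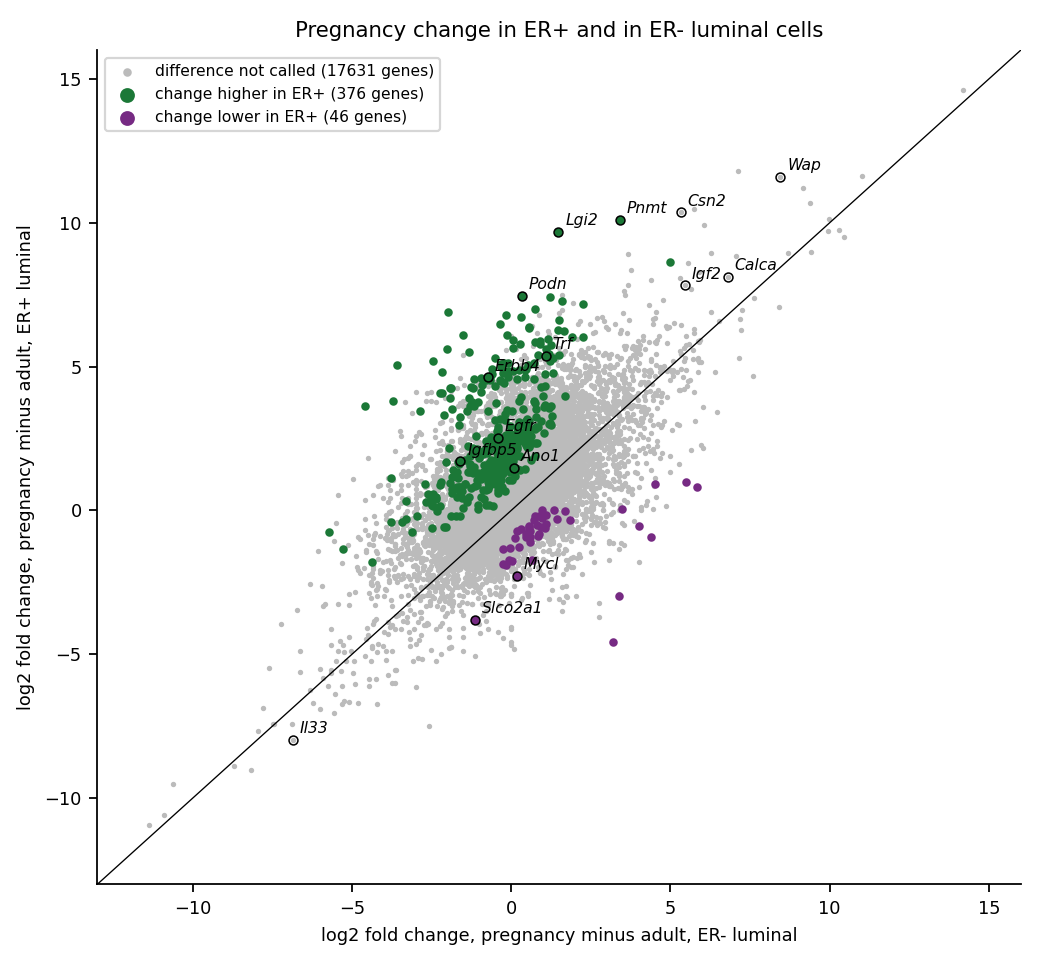
Log2 fold change of pregnancy over adult in ER+ luminal cells (y axis) against that in ER- luminal cells (x axis) for 18053 genes. The 376 genes called higher in the difference lie above the diagonal and the 46 called lower below it, and Il33 and Calca, not called in the difference, lie closer to it than Lgi2 or Pnmt.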

How the data were processed

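RNA from sorted mouse mammary cells was sequenced with an Ovation Solo kit after RNeasy extraction, per the labels' protocols; STAR, Picard, HTSeq and builds GRCm38 and mm10 are named in the submitters' processing notes. The deposited values are signal: gene counts that the authors scaled to a common total, as the values themselves show. Steps between low values gave the reads per library, and at least 99.5% of values in each of the 18 libraries came out as whole reads; 75 gene IDs with conflicting rows were left out. Genes at 10 or more in at least 2 of 18 libraries (22269) were fitted as log2(value + 1) with limma 3.58.1 (R 4.3.3; trend, robust, 9 group means, 9 residual degrees of freedom, two-sided, Benjamini-Hochberg over all tested genes, threshold 0.05). Counting intervals are 95% and exact, and a group at 0 is bounded by 3 reads over its libraries. Both cover counting error only, and the values do not tell reads of separate molecules from duplicates. Alternatives used edgeR 4.0.16 and DESeq2 1.42.0 on the recovered reads, other scalings, pseudocounts, filters, weights and left-out libraries. The scripts were tested on simulated data. A rule named 177 genes: a panel, the largest or most abundant changes in each comparison and up to 4 called members of each list; further list members were chosen for description after their values were seen. The members and lists were chosen with earlier results of these data known. Genes of the lists that share a symbol between IDs are not described. Results for a few list members are not reported here.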

Additional observations from a re-analysis of the deposited data

Results flagged for a closer look

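A total of 461 genes of 22269 tested changed differently between pregnancy and adulthood in ER+ than in ER- luminal cells, by limma's test of the difference itself at an adjusted p under 0.05, and the named ones follow with their difference of log2 fold changes, ER+ minus ER-. The difference was 5.36 for Erbb4, 2.95 for Egfr, 3.30 for Igfbp5, 1.38 for Ano1, 4.28 for Trf, 2.82 for Mfge8, 2.50 for Thbs1, 1.72 for Sparc and 1.79 for Igf1r, and these calls held without each library in turn. It was 2.32 for Igf1, 1.54 for Lamb1, 2.28 for Xdh, 1.49 for Il1rap and 1.90 for Egr3, an immediate-early gene. Each of these calls was lost without pregnancy ER- replicate 2 and without adult ER- replicate 2. In all, the Egr3 call was lost under 13 settings, edgeR among them, that of Xdh under 12 and that of Il1rap under 10. For Lamb1 it was 5 settings and for Igf1 3. Among genes with no read in adult ER+ cells the difference was 6.69 for Pnmt, 8.20 for Lgi2, 8.88 for Abca6, 7.66 for Astn2, 7.01 for Fbxl21, 7.14 for Podn and 7.59 for Rnf182, and for Tmod1, with 1 adult read, 6.84. The Pnmt call was lost without 7 of the 8 libraries of the contrast and under edgeR and DESeq2. Those of Lgi2, Abca6, Podn and Rnf182 held without each library in turn, but under edgeR only that of Podn was kept. The Astn2 call was lost under edgeR, quantile normalization, and without pregnancy ER+ replicate 2 or adult ER- replicate 2. That of Fbxl21 was lost under 9 settings, edgeR among them. That of Tmod1 was lost without adult ER- replicate 2 and with thinned reads. Fitted differences of such genes depend on the added constant and are no bound.

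The difference was negative for Slco2a1 at -2.68, Limch1 at -2.37 and Mycl at -2.46. It was also negative for Amd2 at -5.01, Asb10 at -7.79, Slc24a5 at -4.54, Spata33 at -3.62 and Sv2b at -5.30, which had no read in either adult ER- library. Pregnancy ER- replicate 2, whose low values fell on a different grid from those of every other library, entered each of these differences: without it 3 genes in all were called lower, against 50 with it, and of the negative ones named here Amd2 alone was still called. The Amd2 call was lost under edgeR and DESeq2. With library weights 6 genes were called lower.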

How the results depend on the processing

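Against adult ER+ cells 3975 genes were called. Fitting the 4 libraries alone called 0 (5769 at an unadjusted p under 0.05), thinning reads to the shallowest library, added after seeing the data, called 2597, and leaving out 1 library called 1800 to 3209. Quantile normalization turned the split to 1884 higher and 1890 lower, moving the median log2 change of all genes to -0.11 against 0.21, and DESeq2 gave 2036 higher and 1496 lower. Against puberty the 2916 calls became 1429 in the fit on 4 libraries and 1348 to 2343 without 1 library. For the difference, 461 calls became 204 with library weights, 290 with the compared groups alone, 278 with edgeR, 281 with thinned reads and 202 to 619 without 1 library. A replicate block gave 4184, 3141 and 510 calls in the 3 comparisons. Against adult cells it added calls for Ltf and Acta2 among the genes described and lost none. The cell cycle list had 8 members called higher under it, against 2, and pericyte markers 5, against 3. Same-numbered pregnancy and adult ER+ libraries deviated with a correlation of -0.03, which cannot show whether cell types of a stage were paired. Between same-numbered ER+ and ER- libraries the correlation was 0.08 in pregnancy, 0.07 in adult mice and 0.27 in puberty. Whether the numbers pair libraries was not settled. Of 149 genes described, 111 were called against adult cells and 72 of these kept the call in every setting but the fit on 4 libraries, while 32 lost it without pregnancy ER+ replicate 2. Adult ER+ depth, at 2558368 and 2405290 reads, limits what low genes can show.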
